A study of Mus musculus with 2 samples.

Results

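The synaptonemal complex and the chromosome axis were followed through 10 genes, Sycp1, Sycp2, Sycp3, Syce1, Syce2, Syce3, Tex12, Hormad1, Hormad2 and Smc1b, chosen by name for the structures their proteins build. All 10 were listed in both tables, among 36547 genes in all. The RNA came from testes of 12-week-old C57BL/6 mice, with 1 single-cell library from a WT testis and 1 from an Alkbh5-/- (KO) testis, in which the gene for an RNA demethylase is inactivated in every cell of the animal. The WT library held 80283221 UMIs in 5756 barcodes, with a median of 10905.5, and the KO library 82056760 in 7012, with a median of 9117.5 (a UMI, or unique molecular identifier, tags 1 captured RNA molecule). Because each genotype was a single library, no test between genotypes was possible: the intervals given here are exact 95% intervals that cover counting error only, and not differences between animals. Alkbh5 itself had 607 UMIs in the WT library and 5 in the KO library.

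In meiotic prophase each chromosome folds into loops along a protein axis, and the axes of the paired homologs are then joined along their length by the synaptonemal complex. SYCP2 and SYCP3 build the lateral elements on the axis, SYCP1 forms the transverse filaments, and SYCE1, SYCE2, SYCE3 and TEX12 form the central element in the middle. HORMAD1 and HORMAD2 mark axes that have not yet synapsed, and SMC1B is a meiotic subunit of cohesin, the ring that holds sister chromatids together at the axis.

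Germ cells were grouped from clusters made without the 10 genes among the clustering features, and each group carries the name of its marker genes. There were 158 WT and 918 KO spermatogonia-like cells (led by Crabp1, Sall4 and Dmrt1), 67 WT and 267 KO early spermatocyte-like cells (led by Rad51ap2, Rad21l and Prdm9), and 714 WT and 663 KO late spermatocyte-like cells. The late spermatocyte-like cells fell in 2 clusters, called A here (250 WT and 290 KO cells, with Piwil1 and Pou5f2 among the leading genes) and B (464 WT and 373 KO cells, with Nutm2 and Pabpc6 among them). After meiosis there were 797 WT and 754 KO early round, 1104 WT and 1034 KO mid round, 586 WT and 591 KO late round, and 2162 WT and 1030 KO elongating spermatid-like cells. Early spermatocyte-like cells were 1.16% (0.903 to 1.48) of WT barcodes and 3.81% (3.37 to 4.28) of KO barcodes, and elongating spermatid-like cells 37.6% and 14.7%. A share of barcodes cannot separate a gain of one cell type from a loss of another. The libraries shared 45 barcode sequences, and leaving those cells out moved no ratio of the 10 genes outside its counting interval.

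The stretches before the genes' starts are shown first, and were not tested against the courses given below. In the RefSeq promoter windows of GRCm38.p6, from 250 bases before to 50 bases after a start, the letters GCGGGAA (an E2F6-type motif, searched on both strands) were present for 5 of the 10 genes and for 5.29% of all 27025 genes. The 30-base stretches that hold it are printed 5′ to 3′ on the strand of the gene, with the motif in capitals.
Sycp3 (chr10:88459429-88459458, plus strand): aggaaggaacaGCGGGAAagtgctgcttct
Syce2 (chr8:84872213-84872242, plus strand): agggcgctgagGCGGGAAaagacggaatgg
Tex12 (chr9:50561395-50561424, minus strand): ggaggaaaaagGCGGGAAgtaaagggaagt
Hormad1 (chr3:95559571-95559600, plus strand): cgcagcttttgGCGGGAAtagtggtctggc
Smc1b (chr15:85131987-85132016, minus strand): aaaagaatttcTTCCCGCgctttttttttt
In Smc1b the motif reads on the opposite strand, so its reverse complement is in capitals. The letters CNCCTCAG, a motif described for the meiotic regulator STRA8, were present for 4 of the 10 genes and for 9.12% of all genes, and here all 4 read on the opposite strand.
Sycp1 (chr3:102936051-102936080, minus strand): ttccaggaggttCTGAGGGGaagctcacgg
Syce2 (chr8:84872208-84872237, plus strand): cgcagagggcgCTGAGGCGggaaaagacgg
Tex12 (chr9:50561257-50561286, minus strand): gtgctgcggctCTGAGGCGgcaggtcgtgg
Hormad2 (chr11:4441173-4441202, minus strand): agcaaggcctgCTGAGGGGccaaccttaga
In Syce2 both motifs overlap, and the Sycp1 match lies after the start. A MYB-type motif (AACNGNC) was in the windows of 6 of the 10 genes and of 36.0% of all genes, and the CRE letters TGACGTCA were in none of the 10 and in 2.03% of all genes. The windows of the 10 genes held from 5 (Syce3) to 33 (Syce2) CG letter pairs, beside a median of 7 over all windows. GCGGGAA itself holds such a pair, and the shares of genes with a match were not adjusted for this. A match is a description of the letters, and was not tested as a site of binding.

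In the WT library 9 of the 10 genes had their highest level in early spermatocyte-like cells, and Syce1 had its highest in late spermatocyte-like cells. A level here is the gene's UMIs per 1000000 UMIs of all genes in that class (CPM), and is compared only with levels of the same gene. The same classes held the highest levels in the KO library. After the peak the genes followed different courses, and Syce1, Syce2 and Syce3 parted from the rest.

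**Figure D1:**
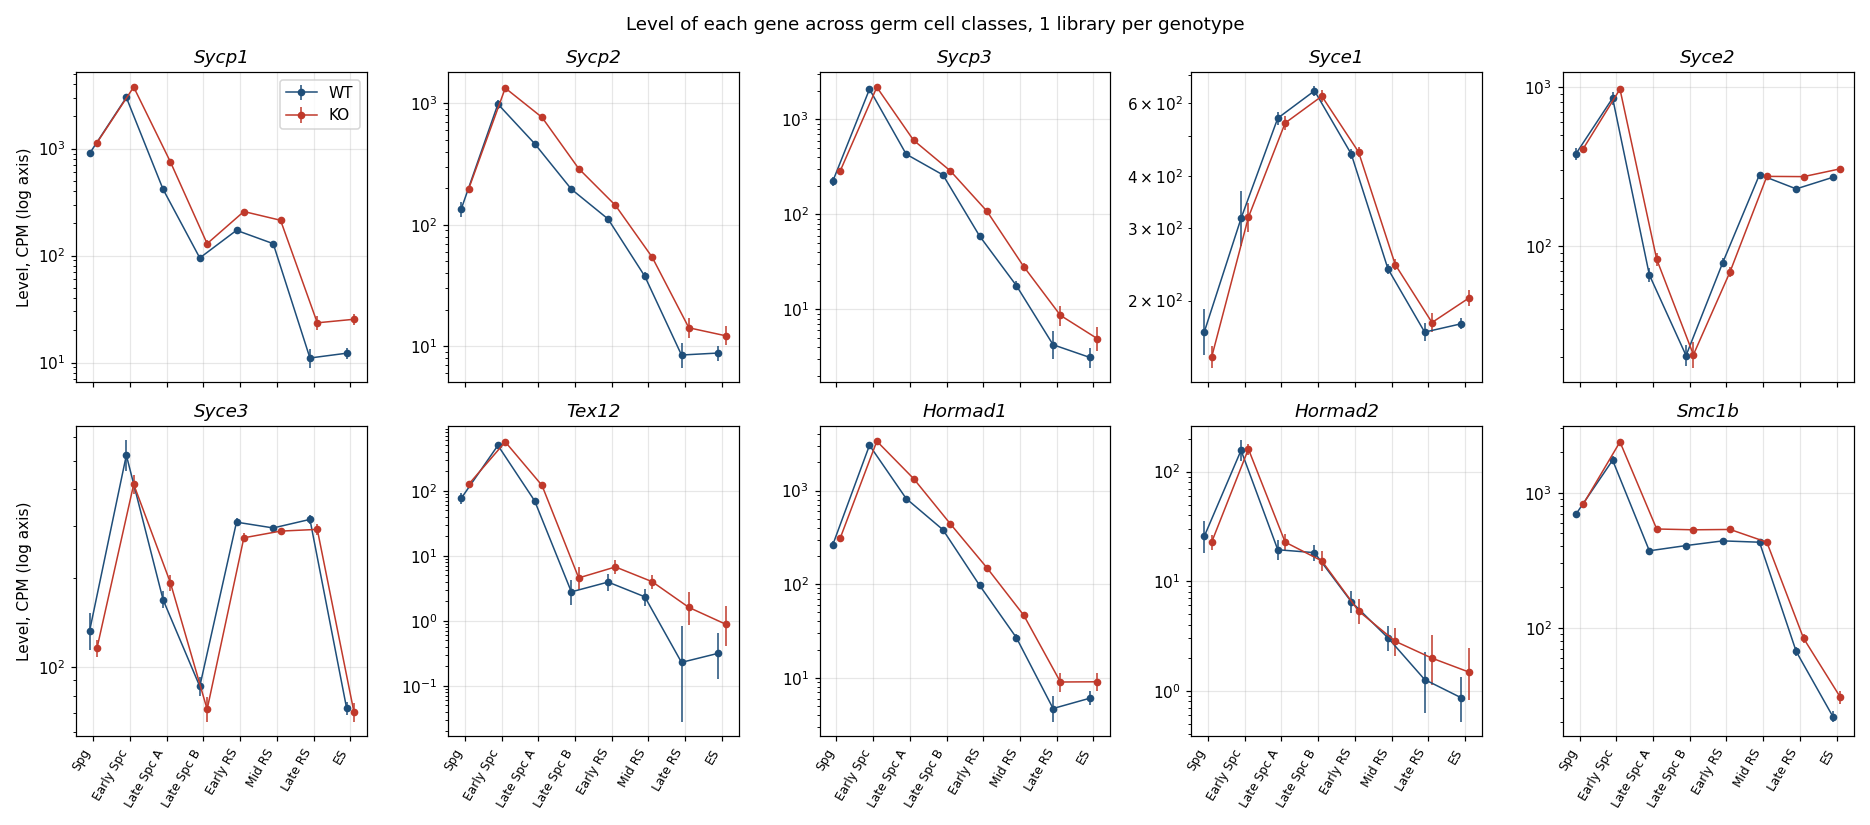
Level of each of the 10 genes (CPM, log axis with its own range per gene) in spermatogonia-like cells (Spg), early spermatocyte-like cells (Early Spc), late spermatocyte-like clusters A and B (Late Spc A and B), and early, mid and late round (RS) and elongating spermatid-like cells (ES), for WT (blue) and KO (red); bars are exact 95% counting intervals. In WT, 9 genes peaked in early spermatocyte-like cells, and Syce2 and Syce3 rose again after cluster B.

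Among the lateral element genes, Sycp3 stood at 224 CPM in WT spermatogonia-like cells, 2086 (1966 to 2212) in early spermatocyte-like cells, 431 in cluster A, 261 in cluster B, 59.2 in early round, 17.8 in mid round, 4.25 in late round and 3.12 in elongating spermatid-like cells. In the KO library the same order of classes gave 286, 2187 (2120 to 2255), 605, 288, 108, 28.3, 8.66 and 4.94. The level fell at every step after the early spermatocytes in both libraries. Sycp2, the larger partner of SYCP3, went from 985 (903 to 1073) in WT and 1335 (1283 to 1389) in KO early spermatocyte-like cells to 466 and 767 in cluster A, 197 and 290 in cluster B, and 8.82 and 12.2 in elongating spermatid-like cells. Sycp3 overlaps Chpt1 on the opposite strand, and whether counting used the strand was not stated. Chpt1 had 35.3 CPM in WT and 7.62 in KO early spermatocyte-like cells, and 96.3 and 24.4 in elongating spermatid-like cells, so it was lower in KO in both classes.

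Sycp1, the transverse filament gene, had 902 CPM in WT and 1135 in KO spermatogonia-like cells, 3010 (2865 to 3160) and 3764 (3676 to 3854) in early spermatocyte-like cells, 417 and 751 in cluster A, and 95.04 and 129 in cluster B. It then stood higher again in early round spermatid-like cells, at 172 in WT and 258 in KO, and was at 129 and 214 in mid round ones before 11.0 and 23.5 in late round ones. The pattern of a second, lower maximum after meiosis was present in both libraries, with intervals of cluster B and early round cells that did not overlap. Of all Sycp1 UMIs, 11.8% in WT and 30% in KO were in spermatogonia-like cells, 14.7% and 24.7% in early and 26.7% and 16.7% in late spermatocyte-like cells, and 19.1% and 9.85% in early round and 23.6% and 13.0% in mid round spermatid-like cells. These shares also follow the number of cells of each class in each library.

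The central element genes did not share 1 course. Tex12 behaved like the axis genes: 498 (440 to 562) in WT and 564 (530 to 599) in KO early spermatocyte-like cells, 70.0 and 121 in cluster A, 2.79 and 4.57 in cluster B, and then 2 UMIs in all in WT and 13 in KO late round spermatid-like cells. Syce1, by contrast, had 316 and 318 in early spermatocyte-like cells, rose to 552 and 537 in cluster A and 642 (625 to 660) and 623 (603 to 644) in cluster B, and remained at 452 and 457 in early round, 239 and 244 in mid round, 168 and 177 in late round and 176 and 203 in elongating spermatid-like cells. From early spermatocytes on, the log2 ratio of KO to WT for Syce1 lay between -0.06 and 0.21 in every class.

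Syce2, whose protein pairs with TEX12, had 380 CPM in WT and 410 in KO spermatogonia-like cells and 851 (775 to 933) and 969 (925 to 1015) in early spermatocyte-like cells. It dropped to 65.9 and 82.6 in cluster A and 20.5 and 20.7 in cluster B, and then rose to 78.8 and 69.1 in early round, 281 and 274 in mid round, 229 and 273 in late round and 271 and 306 in elongating spermatid-like cells. Syce3 had 522 (463 to 587) and 416 (387 to 447) in early spermatocyte-like cells, 169 and 193 in cluster A and 85.9 and 71.9 in cluster B. It came back to 310 and 274 in early round, 296 and 289 in mid round and 316 and 293 in late round spermatid-like cells, and ended at 72.4 and 70.2 in elongating ones. So Syce2 and Syce3 both had a trough in cluster B, in both libraries, and Syce2 kept its level in elongating spermatids where Syce3 lost it. Tex12 and Syce2 each overlap a gene on the opposite strand (Il18 and Gcdh). Il18 was higher in KO in some of the classes where Tex12 was too. It had 2.30 CPM in WT and 7.21 in KO in cluster B, 4.06 and 9.16 in cluster A and 3.29 and 7.11 in early round spermatid-like cells. In early spermatocyte-like cells, where Tex12 was highest, Il18 was not higher in KO, at 13.0 in WT and 11.4 in KO. The part of Il18 in the Tex12 values was not tested. Gcdh had 1.13 CPM in WT and 0.987 in KO elongating spermatid-like cells, where Syce2 was high.

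Hormad1 followed the lateral element genes, with 3045 (2899 to 3196) in WT and 3365 (3282 to 3450) in KO early spermatocyte-like cells, 820 and 1343 in cluster A, 382 and 442 in cluster B, 97.0 and 149.5 in early round, and 6.06 and 9.08 in elongating spermatid-like cells. Hormad2 was the most sparsely counted: early spermatocyte-like cells held 84 (WT) and 295 (KO) of its UMIs, or 156 CPM (125 to 193) and 161 CPM (143 to 180). It fell to 18.2 and 15.3 in cluster B and 0.860 and 1.48 in elongating spermatid-like cells. Smc1b started high in spermatogonia-like cells, at 693 in WT and 825 in KO, reached 1744 (1634 to 1859) and 2381 (2311 to 2453) in early spermatocyte-like cells, and then kept a plateau: 372 and 539 in cluster A, 406 and 532 in cluster B, 440 and 535 in early round and 430 and 431 in mid round spermatid-like cells. Only in late round (66.7 and 83.5) and elongating spermatid-like cells (21.9 and 30.6) did it fall further.

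The make-up of the 10 genes' UMIs turned over with these courses. Syce1, Syce2 and Syce3 together made up 12.8% (12.0 to 13.6) of them in WT and 11.0% (10.7 to 11.4) in KO early spermatocyte-like cells. Their part was 23.3% and 16.4% in cluster A, 35.5% and 29.6% in cluster B, 48.6% and 39.9% in early round, 55.8% and 50.8% in mid round, 88.1% and 83.9% in late round and 90.7% (90.2 to 91.2) and 87.3% (86.4 to 88.0) in elongating spermatid-like cells. From the early spermatocytes on the part rose at each step in both libraries. It was lower in KO than in WT in every germ cell class, and in somatic classes too. Leydig-like cells had 58.5% in WT and 35.65% in KO, Sertoli-like cells 60% and 41.2%, and macrophage-like cells 61.9% and 31.8%.

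**Figure D2:**
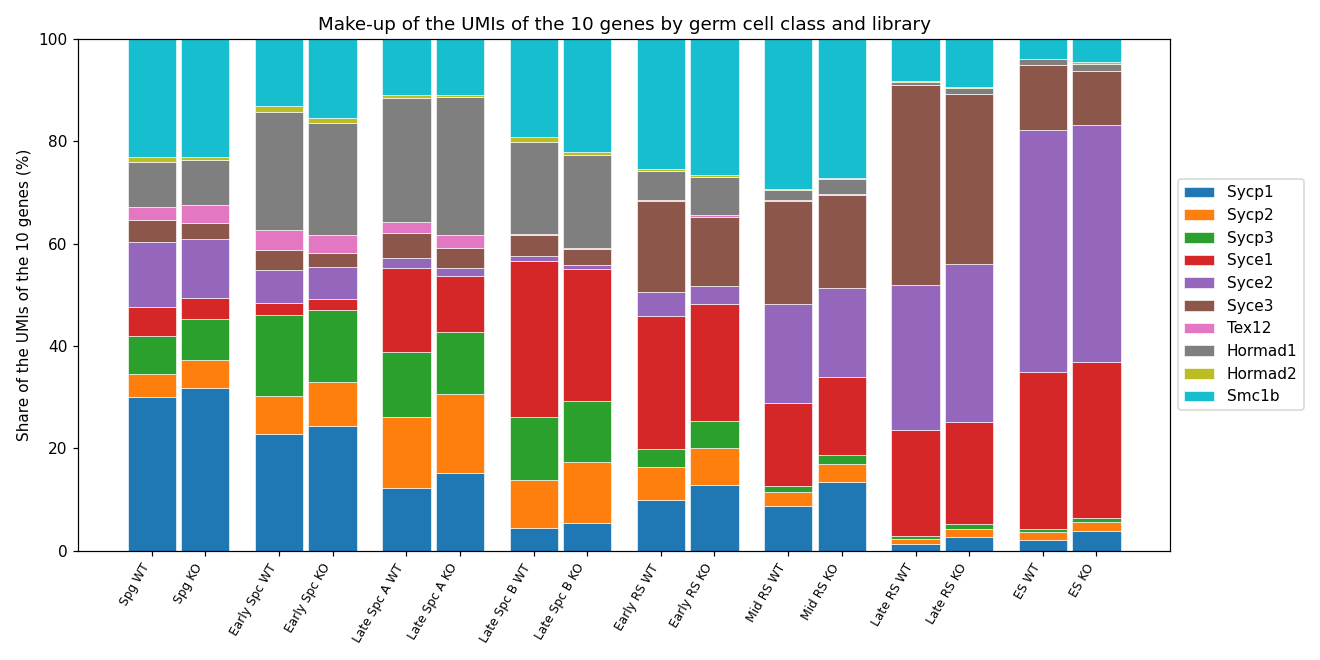
Share of the UMIs of the 10 genes that belonged to each gene (y axis, percent, stacked to 100) per germ cell class and library, with the class names of the plot of levels. Sycp1 and Hormad1 made up 22.8% and 23.04% in WT early spermatocyte-like cells, and Syce1, Syce2 and Syce3 together 90.7% in WT elongating spermatid-like cells.

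How many cells carried each RNA was compared after every cell was thinned to 5000 UMIs, which left out 0 WT and 241 KO cells. In early spermatocyte-like cells of WT, 8 of the genes were found in between 89.6% and 100% of cells, Syce1 in 70.1% and Hormad2 in 52.2%. A cell of that class held a median of 9 of the 10 RNAs in both libraries. The median was 6 in spermatogonia-like cells of both libraries, 6 in WT and 7 in KO cells of cluster A, 5 in cluster B, and 2 in late round and elongating spermatid-like cells. In spermatogonia-like cells Smc1b was found in 91.8% of WT and 94.4% of KO cells and Sycp1 in 89.9% and 96.2%, while Hormad2 was found in 8.23% and 11.3%.

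Leydig-like cells, which do not enter meiosis, were used as a measure of the free RNA in the droplets. There Sycp1 was found in 13.98% of 93 WT and 9.96% of 1125 KO cells, Syce1 in 13.98% and 10.4%, Syce2 in 20.4% and 14.04%, Syce3 in 11.8% and 6.49%, and Smc1b in 11.8% and 10.7%, all after thinning (before thinning the median depths of these cells were 9977 and 7874 UMIs). Against this, late round spermatid-like cells had Syce1 in 53.8% of WT and 57.4% of KO cells, Syce2 in 67.4% and 72.8% and Syce3 in 74.1% and 72.8%, all above the Leydig-like share. Sycp1 in late round spermatid-like cells (5.80% and 7.93%) and Sycp3 there (2.05% and 2.76%, against 4.30% and 6.13% in Leydig-like cells) were at or below it and are background by this measure. The same held for Smc1b in WT elongating spermatid-like cells (11.1%). Other somatic cells carried more. Macrophage-like cells (25 WT and 77 KO after thinning) had Syce1 in 52% and 39.0%, Syce2 in 48% and 41.6%, Syce3 in 40% and 31.2% and Sycp1 in 12% and 53.2%, with summed elongating spermatid markers at 85820 CPM in WT and 52910 in KO. The share of Syce1 in WT late round spermatid-like cells was therefore not above that of macrophage-like cells (interval 31.3% to 72.2%), and the levels there, 209 CPM for Syce1 and 231 for Syce2 in WT, were no lower than in late round spermatid-like cells. Sertoli-like cells also carried these RNAs, with Syce1 in 44.9% of 49 WT and 18.2% of 468 KO cells, and there the summed level of 30 elongating spermatid markers was 173400 CPM in WT and 40480 in KO.

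**Figure D3:**
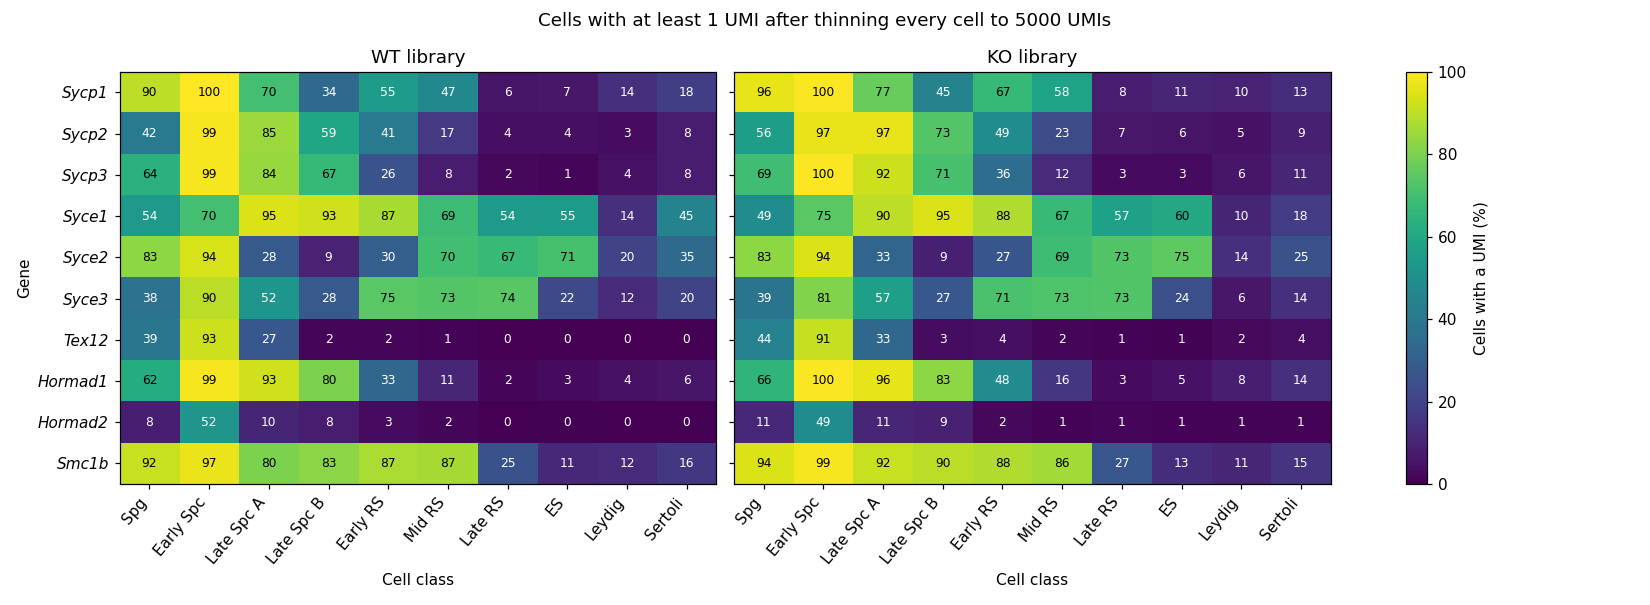
Percent of cells with at least 1 UMI of each gene after thinning to 5000 UMIs per cell, for germ cell classes (named as in the plot of levels) and for Leydig-like and Sertoli-like cells, in the WT (left) and KO (right) library. Syce1, Syce2 and Syce3 stayed above their Leydig-like share in late round spermatid-like cells, and Sycp1, Sycp3 and Hormad1 did not.

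Between the genotypes, most of these genes had more CPM in the KO library in the spermatocyte classes. They were counted by a criterion of size, which asked that 25% or more of the cells in 1 of the libraries hold a UMI and that the natural log of the mean count (scaled to 10000 UMIs per cell, plus 1) differ by 0.25 or more. A gene below 25% of cells in both libraries could not pass. Each share of all genes past the criterion, here and below, is over the genes that met this condition. Those were 4225 in spermatogonia-like, 5467 in late spermatocyte-like and 2239 in elongating spermatid-like cells. The 10 genes were counted whether or not they met it. In spermatogonia-like cells 7 of the 10 genes were higher in KO, against 51.28% of all genes with at least 10 UMIs. None of the 10 passed the criterion there. Beside this, 1.16% of all genes passed as higher and 3.15% as lower. In early spermatocyte-like cells 9 of 10 were higher, against 48.65% of all genes with at least 10 UMIs. There 1 passed, Smc1b, beside 3.29% of all genes, so that the count past the criterion was near the background. In late spermatocyte-like cells 9 of 10 were higher, against 55.84% of all genes with at least 10 UMIs. There 3 passed, Sycp1, Sycp2 and Hormad1, beside 0.787% of all genes. Sycp1 alone passed in early round (0.879% of all genes) and mid round spermatid-like cells (2.73%), and none passed in late round (3.44%) or elongating ones (9.29%). In the late round and elongating classes Sycp2, Sycp3, Tex12, Hormad1 and Hormad2 had too few UMIs to be in 25% of cells. They could not pass, so 0 of the 10 there does not compare directly with those shares. None of the 10 passed as lower in any of these 7 classes, where from spermatocytes on 5.92%, 0.805%, 0.841%, 0.843%, 1.45% and 2.23% of all genes did, in the order of the classes. The median log2 ratio of KO to WT over the 10 genes was 0.24, 0.16 and 0.44 in spermatogonia-like, early and late spermatocyte-like cells, where the median over all genes with at least 10 UMIs was 0.02, -0.03 and 0.06.

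**Figure D4:**
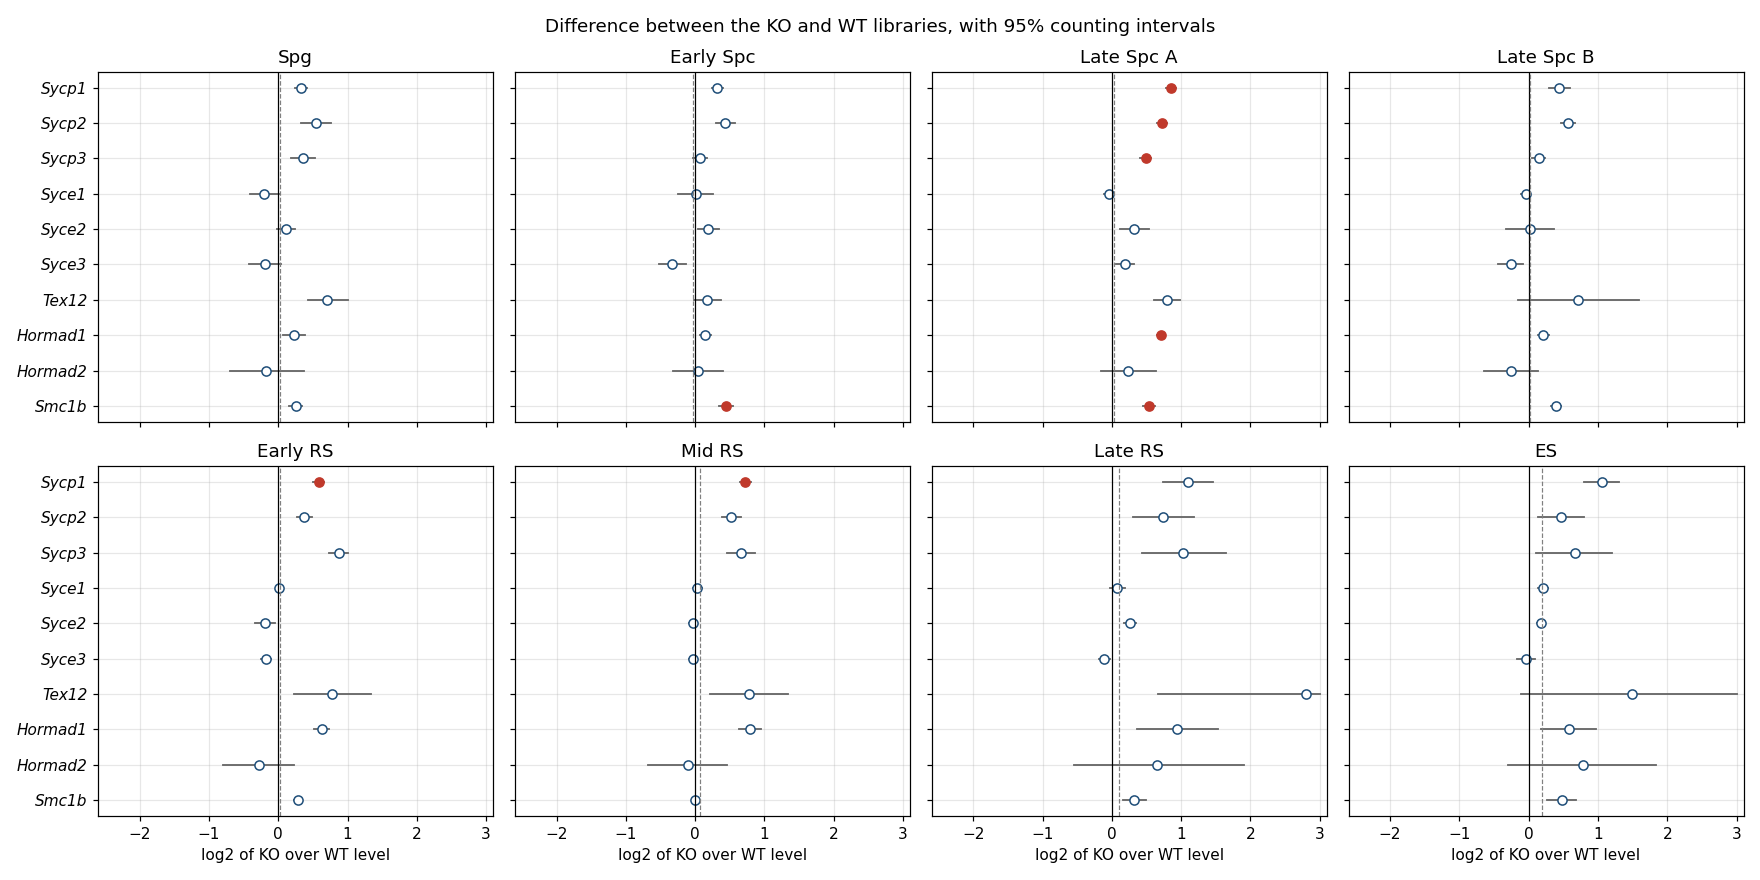
Log2 ratio of the KO to the WT level of each gene (x axis) in each germ cell class, named as in the plot of levels, with exact 95% counting intervals that are drawn only as far as 3; filled red points passed the size criterion and the dashed line is the median over all genes. In cluster A, 5 genes passed and Syce1 lay at -0.04; in cluster B none passed.

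The excess in late spermatocyte-like cells was uneven between its clusters. In cluster A, Sycp1 (log2 ratio 0.85, 0.77 to 0.93), Sycp2 (0.72, 0.65 to 0.79), Hormad1 (0.71, 0.66 to 0.77), Smc1b (0.54, 0.45 to 0.62) and Sycp3 (0.49, 0.41 to 0.57) passed the criterion, beside 0.888% of all genes. Tex12 was at 0.79 (0.60 to 0.98) but its counts were low, so that it differed by less than 0.25 on the scale of the criterion. Syce1 was at -0.04 (-0.11 to 0.04) in the same cells, Syce3 at 0.19 (0.06 to 0.32) and Hormad2 at 0.23 (-0.16 to 0.63). In cluster B none passed, beside 0.442% of all genes, and the ratios of Sycp1 (0.44, 0.30 to 0.59), Sycp2 (0.56, 0.46 to 0.66), Smc1b (0.39, 0.32 to 0.46), Hormad1 (0.21, 0.13 to 0.29) and Sycp3 (0.14, 0.05 to 0.24) were all smaller than in A. Cluster A held 250 of 714 late spermatocyte-like cells in WT and 290 of 663 in KO. With each finer cluster weighted equally, the class ratio of Sycp1 was 0.715 in place of 0.96, that of Sycp2 0.65 in place of 0.79 and that of Hormad1 0.47 in place of 0.67.

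Stage and free RNA moved with these ratios, and their part in them was not tested. In cluster A the 14 early spermatocyte markers, none of them among the 10 genes, summed to 1038 CPM in WT and 1565 in KO, and 11 of the 11 with enough UMIs were higher in KO. The 20 late spermatocyte markers summed to 18920 and 18400 there, and 7 of 20 were higher. In cluster B the early markers summed to 310 (WT) and 345 (KO), with 6 of 11 higher. RNA of other cells was also counted in the spermatocytes: 30 elongating spermatid markers summed to 27530 CPM in WT and 8589 in KO early spermatocyte-like cells, and 4736 and 2454 in cluster A. Leaving 1705 genes of elongating spermatids out of the denominators moved none of 30 ratios in spermatogonia-like and spermatocyte-like cells outside its counting interval. That step shifts all ratios of a class by the same amount and leaves the UMIs of the 10 genes as they were. It therefore cannot show how many of those UMIs were free RNA. Leydig-like cells, used here as the measure of free RNA, had a log2 ratio of KO to WT of 0.89 (0.37 to 1.46) for Sycp1. There Sycp3 was at 1.64 (0.64 to 2.87) and Hormad1 at 1.27 (0.53 to 2.13), from only 8 and 15 WT UMIs. Syce3 was at -1.23 (-1.68 to -0.75) and Syce2 at -0.53 (-0.88 to -0.17) in the same cells. Macrophage-like and Sertoli-like cells carried more of some of these RNAs, as given above.

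In early spermatocyte-like cells the largest ratios belonged to Smc1b (0.45, 0.35 to 0.55), Sycp2 (0.44, 0.30 to 0.58) and Sycp1 (0.32, 0.24 to 0.40). Hormad1 was at 0.14 (0.07 to 0.22) and Sycp3 at 0.07 (-0.03 to 0.16), and Syce3 was lower in KO, at -0.33 (-0.53 to -0.13). Of the genes that follow prophase, Meioc (0.52, 0.32 to 0.71) and Dmc1 (0.44, 0.18 to 0.72) were higher in KO in this class, and Meiob (-0.585) and Piwil1 (-1.965) were lower. Meioc, Dmc1 and Meiob are among the 14 early spermatocyte markers, of which 9 were higher in KO in this class. The median log2 ratio of those markers was 0.20, and that of the 10 genes was 0.16. In spermatogonia-like cells Tex12 had the largest ratio, 0.71 (0.42 to 1.01), which was 0.37 with the libraries merged without integration. In the same cells Stra8, the retinoic acid target that precedes meiosis, had 311 CPM in WT and 613 in KO.

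Early round spermatid-like cells had ratios of 0.87 (0.73 to 1.01) for Sycp3, 0.62 (0.51 to 0.73) for Hormad1 and 0.58 (0.50 to 0.67) for Sycp1, but 0.02 (-0.04 to 0.07) for Syce1, -0.18 (-0.25 to -0.11) for Syce3 and -0.19 (-0.33 to -0.05) for Syce2. In mid round ones Syce1, Syce2, Syce3 and Smc1b all lay between -0.04 and 0.03, with intervals no wider than -0.09 to 0.09, while Sycp1 was at 0.73 (0.65 to 0.80). In late round and elongating spermatid-like cells Sycp1 reached 1.09 (0.73 to 1.46) and 1.06 (0.80 to 1.31), at levels that were not above those of Leydig-like cells. Within the elongating spermatids, a cluster of 561 WT and 154 KO cells had Syce1 at 94.4 in WT and 199 in KO, a log2 ratio of 1.07 (0.84 to 1.30) that passed the criterion, beside 13.6% of all genes there.

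The wider machinery was read from 50 related genes in 5 lists, written from general knowledge. Of the 8 cohesin subunits 7 were higher in KO in early spermatocyte-like cells (median log2 ratio 0.58) where 48.6% of all genes were higher, and 3 passed the criterion, beside 3.29% of all genes: Smc3 (535 in WT, 829 in KO), the core partner of SMC1B, Rad21l (130 and 208), the meiotic kleisin that closes the ring, and Smc1a (20.4 and 55.5), the somatic counterpart of Smc1b. Rad21l is also among the leading genes of that cluster, and Rec8, the other meiotic kleisin, was at 16.7 and 16.3. Stag3, the meiotic subunit at the ring, had 199 and 239. In late spermatocyte-like cells only 2 of the 8 cohesin subunits were found in enough cells to be able to pass. Neither did, beside 0.787% of all genes, and so few genes cannot be told from that share.

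Of the 12 cohesin regulators and protectors, 7 of 11 with at least 10 UMIs were higher in KO in early spermatocyte-like cells, against the same 48.6%. Esco1, which acetylates SMC3, passed (110 in WT, 182 in KO), beside 3.29% of all genes. Nipbl, the cohesin loader, had 537 and 524, and Wapl, which releases cohesin, 139 and 145. Among 12 partners of the axis and the complex 4 of 10 were higher and none passed in either spermatocyte class. Only 5 (early) and 6 (late) of the 12 were found in enough cells to be able to pass. Of all genes, 3.29% passed as higher in the early and 0.787% in the late class. Hspa2, the chaperone needed to take the complex apart, had 738 and 826 in late spermatocyte-like cells and Skp1a 606 and 595. 4930447C04Rik (Six6os1), a central element gene that is no member here, had 645 and 843 in early spermatocyte-like cells. It passed only in cluster A, with a log2 ratio of 1.18, beside 0.888% of all genes there. The telomere attachment list had 4 of 8 higher in early and 6 of 8 in late spermatocyte-like cells. None passed the criterion, beside 3.29% (early) and 0.787% (late) of all genes, where 8 (early) and 6 (late) of the 8 were found in enough cells. Spdya had 373 in both libraries in the late class while Terf1 had 71.9 and 72.1. For the response to unsynapsed chromatin the counts were 6 of 9 in early and 9 of 9 in late spermatocyte-like cells. In the late class 55.8% of all genes were higher. Again none passed the criterion, beside the same 3.29% and 0.787% of all genes, where 8 (early) and 4 (late) of the 10 were found in enough cells. For both lists so few genes cannot be told from those shares. Atr had 125 and 133 and H2afx 97.3 and 124 in the late class. Over the related genes with at least 10 UMIs the median log2 ratio was 0.19 in early (46 genes) and 0.16 in late spermatocyte-like cells (45 genes).

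Likeness of course was measured by Pearson's r of log2(CPM + 1) with the mean course of the 10 genes, over 22 points of 11 germ cell clusters in 2 libraries. These points share their libraries, so r is a description. Of 12898 genes with at least 500 UMIs, the 5 most alike outside the 10 were Pigp (0.990), Dnajc3 (0.984), Cenpx (0.978), Slc31a1 (0.975) and Stx16 (0.975). Of the 10 themselves Sycp3 was highest (0.971) and Syce2 lowest (-0.01). Each of the 10 is part of the mean it was compared with, so these values do not compare directly with those of outside genes. Between single genes, r was 0.991 for Hormad1 with Sycp3, 0.988 for Sycp2 with Sycp3 and 0.939 for Sycp1 with Tex12, and -0.75 for Syce1 with Syce2.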

How the data were processed

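Per the labels and methods, cells of 1 testis library per genotype were captured with the GEXSCOPE kit; the introduction speaks of 1 mouse and the methods of 3 mice per genotype, so the number of animals is uncertain. The authors trimmed reads, aligned them with STAR 2.5.3a and counted UMIs with featureCounts 1.6.2, so the deposited values are whole counts of UMIs per gene and barcode. The methods name the human build GRCh38, while the symbols are those of mouse. Whether counting used the strand and which barcodes were deposited are not given in the sources used here; the tables hold more barcodes than the study states, and all of them had over 500 genes.

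Counts were clustered in R 4.3.3 with Seurat 5.3.0 (2000 variable features without the 10 genes, of which 5 would have been among them, 20 anchor dimensions, 30 components, resolution 0.3), and clusters were named from marker lists. Cells called doublets by Scrublet in scanpy 1.11.5 (243 WT, 348 KO) were kept. Summed UMIs, Poisson and Clopper-Pearson intervals and ratios were computed in Python 3.11.15 with scipy 1.17.1; a sum of 0 allows up to 3 counts. PCR and capture make UMIs only approximately independent molecules. Gene positions are from GENCODE vM21. Named genes were the 10, Alkbh5, the 2 genes of each list with the highest WT level in spermatocytes plus those past the criterion, the 5 most alike, and genes that name a cluster; Chpt1, Gcdh, Il18, Stra8, Meioc, Dmc1, Meiob, Piwil1 and Rec8 were added after their values were seen. The members and lists were chosen with earlier results of these data known. The code was tested on simulated counts.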

Additional observations from a re-analysis of the deposited data

Results flagged for a closer look

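Syce1, Syce2 and Syce3 had ratios of KO to WT whose counting intervals lay on opposite sides of 0 in different germ cell classes; the differences between classes were not tested, since each genotype was 1 library. Syce2 had a log2 ratio of 0.41 (0.23 to 0.58) in late spermatocyte-like cells and -0.19 (-0.33 to -0.05) in early round spermatid-like cells. Syce3 was at 0.14 (0.04 to 0.24) in late spermatocyte-like and -0.33 (-0.53 to -0.13) in early spermatocyte-like cells. The late value did not hold in both clusters of the class: Syce3 was higher in KO in cluster A and lower in cluster B. With each finer cluster weighted equally, the late value was -0.014 for Syce3 and 0.212 for Syce2. Syce1 was at 0.21 (0.13 to 0.28) in elongating spermatid-like and -0.06 (-0.11 to -0.01) in late spermatocyte-like cells. In elongating spermatid-like cells the median over all genes with at least 10 UMIs was 0.187 and 62% of them were higher in KO. The Syce1 ratio there was therefore near that of genes in general.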

How the results depend on the processing

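With 1 library per genotype no replicate could be left out and no library could stand as a check of another. No paired analysis was possible because each genotype has 1 library. Of 640 log2 ratios of single genes recomputed under alternatives, 588 stayed inside the counting interval of the reported value and 52 did not, and none of those past the size criterion changed sign. With the libraries merged without integration 16 moved and 54 stayed, and with finer clusters weighted equally 15 moved and 35 stayed. Over 1000 genes per cell, without shared barcodes and under both changed denominators none moved. The pooled count therefore hides the settings that mattered most. Under a CPM ratio of at least 2 in place of the difference of 0.25, the genes past the criterion as higher in KO were 0 in place of 1 in early spermatocyte-like cells, 1 (Tex12) in place of 3 in late ones, and 0 in place of 1 in both early round and mid round spermatid-like cells. Without thinning, 1 gene in place of 0 had a UMI in at least 25% of WT Leydig-like cells. With the libraries merged without integration, 0.8687% of WT barcodes were early spermatocyte-like in place of 1.16%, and the ratio of Smc1b there, the smallest it took, was 0.24 in place of 0.45. The cause of these shifts was not tested. Leaving out shared barcodes and changing the denominator to omit elongating spermatid genes were chosen after seeing the data. Hormad2 and, after meiosis, Tex12 had too few UMIs for narrow intervals.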
